A study of Mus musculus with 7 samples.

Results

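The immunoglobulin heavy chain variable (Ighv) segments were examined in RNA-sequencing of splenic CD4+CD25+ cells, the fraction used as Tregs. The members are the genes that the deposited table types as IG_V_gene and whose symbol starts with Ighv, which gave 105 of the 25469 genes with a count in at least 1 library. The cells came from wild-type (WT) C57BL/6 male mice and were isolated with magnetic beads. The aged group held 3 libraries from 18-month mice and the young group held 4 libraries from 8-week mice, all labelled as biological replicates. The labels name no transgene or treatment in either group. The selection enriches for surface CD4 and CD25 and does not remove every other spleen cell, so the libraries are bulk RNA of an enriched fraction. The question was how much Ighv transcript each library held, which segments it came from, and how diverse the segments were. It was also asked whether these differed between aged and young libraries.

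An Ighv segment is a gene fragment that a developing B cell joins with a D and a J segment to make the variable exon of one antibody heavy chain. A mature B cell, and the plasma cell that may arise from it, transcribes mainly the single segment of its productive join, so the mix of Ighv transcripts in a bulk library is shaped by which B-lineage clones are present and by how much immunoglobulin RNA each makes. In bulk RNA, fewer cells of a type and less RNA per cell cannot be told apart. T cells build their receptors from other gene segments. Segments are grouped by sequence likeness into V families, and the family is the number before the hyphen in the symbol. The Ighv1 family, also called J558, is the largest and lies mostly far from the D and J segments, whereas the Ighv5 and Ighv2 families lie near them.

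All 105 segments were matched by Ensembl identifier to GENCODE M21 on GRCm38, where they lie on the minus strand of chromosome 12 between 113578504 and 116000461, a span of 2422 kb. That annotation lists 113 Ighv genes of this type. Their exons add up to 347 to 480 bases, with a median of 353. The 4 segments below are shown because they were called in opposite directions between ages, both per library and within the Ighv transcripts alone. Each line is the V exon of the GENCODE M21 transcript, or its last 300 bases where it is longer, read 5′ to 3′ on the minus strand, and the capitals mark the germline end from the last in-frame cysteine codon, where the join to D begins. Ighv7-1 and Ighv11-2 were lower in every aged than in every young library, and Ighv1-12 and Ighv1-56 were called higher. By share the ages overlapped for Ighv1-12 and Ighv1-56.
Ighv7-1: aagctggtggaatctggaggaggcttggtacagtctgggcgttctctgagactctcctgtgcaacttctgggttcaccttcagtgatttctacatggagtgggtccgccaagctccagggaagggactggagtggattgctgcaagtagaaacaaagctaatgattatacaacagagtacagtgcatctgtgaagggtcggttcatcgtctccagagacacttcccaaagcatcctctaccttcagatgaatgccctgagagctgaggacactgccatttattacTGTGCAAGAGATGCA
Ighv11-2: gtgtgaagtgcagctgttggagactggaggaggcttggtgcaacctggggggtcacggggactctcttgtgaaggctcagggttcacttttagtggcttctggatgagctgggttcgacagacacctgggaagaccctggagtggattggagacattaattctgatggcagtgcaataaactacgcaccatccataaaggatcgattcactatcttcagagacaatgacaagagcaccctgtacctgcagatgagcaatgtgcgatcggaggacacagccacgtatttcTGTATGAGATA
Ighv1-12: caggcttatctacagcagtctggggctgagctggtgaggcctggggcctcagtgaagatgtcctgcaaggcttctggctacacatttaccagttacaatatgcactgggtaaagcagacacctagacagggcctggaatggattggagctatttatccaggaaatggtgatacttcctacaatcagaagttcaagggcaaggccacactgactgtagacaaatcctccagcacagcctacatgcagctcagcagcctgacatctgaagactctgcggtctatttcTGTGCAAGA
Ighv1-56: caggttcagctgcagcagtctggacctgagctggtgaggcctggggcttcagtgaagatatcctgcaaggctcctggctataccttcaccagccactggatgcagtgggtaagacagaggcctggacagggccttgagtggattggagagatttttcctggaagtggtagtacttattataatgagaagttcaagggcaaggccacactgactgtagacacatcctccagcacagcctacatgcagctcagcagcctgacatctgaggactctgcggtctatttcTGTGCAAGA
The stretches shown lie at chr12:113896408-113896707 (Ighv7-1), chr12:114048241-114048540 (Ighv11-2), chr12:114615850-114616143 (Ighv1-12) and chr12:115242802-115243095 (Ighv1-56). The Ighv1-12 and Ighv1-56 exons were 87.1% identical, and the Ighv7-1 and Ighv11-2 exons were 68.7% identical. Ighv1-12 and Ighv1-56 end in TGTGCAAGA, and in 57 of 105 segments (54.3%) the end starts with these bases. The longer end of Ighv7-1, TGTGCAAGAGATGCA, also starts with them, whereas that of Ighv11-2 is TGTATGAGATA. The exon of Ighv11-2 is 98.7% identical to that of Ighv11-1, and 28 of 105 segments have another segment at least 97% identical, so counts within such pairs are uncertain.

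Gene counts per library ranged from 10734234 to 13649310. Treg transcripts were present in every library, with Foxp3, the master regulator of Tregs, at 447 to 622 CPM (counts scaled to library size with TMM factors) in aged and 394 to 518 CPM in young libraries. B cell markers were also present in every library, as the summed level of 9 of them (Ms4a1, Cd79a, Cd79b, Pax5, Blk, Fcer2a, Cr2, Ebf1 and Cd22) was 947 to 1734 CPM in aged and 1386 to 2163 CPM in young libraries. Of these 9 genes, 0 were called by edgeR's quasi-likelihood test, 4 were lower in aged libraries at an unadjusted p under 0.05, DESeq2 called 3 lower and limma voom 1, and edgeR called 3 lower with aged replicate 3 left out. Replicates of one age differed beyond sampling noise, with a chi-square of 8.25 to 168 per degree of freedom over genes. Young replicate 2 stood apart from the other young libraries in its immunoglobulin RNA, and the main results that rest on it are given with and without it.

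The Ighv segments together took 17286, 17395 and 13041 counts in the aged libraries. In the young libraries they took 5691, 38116, 9629 and 9035 counts. On the TMM scale the summed Ighv level was 1510, 1752 and 1220 CPM in aged and 497, 2671, 760 and 648 CPM in young libraries. The highest and the 3 lowest values were all young, so the ages overlapped. The aged libraries averaged 1494 ± 266 CPM (SD, n = 3) and the young libraries 1144 ± 1024 CPM (SD, n = 4). The difference of mean log2 CPM was 0.72, within the pooled SD of 0.85. Without young replicate 2 it was 1.24, and the ages were then apart. Without young replicate 1 it was 0.43, and the ages overlapped. Per count of the 9 B cell markers, the Ighv count was 0.704 to 1.595 in aged and 0.281 to 1.93 in young libraries, a log2 difference of 1.12 with a pooled SD of 1.08. Only young replicate 2 overlapped with the aged libraries here, since the other young values were at most 0.481, and with it left out the difference was 1.74. Per count of the heavy chain constant genes, it was 0.0933 to 0.156 in aged and 0.126 to 0.185 in young libraries, and the log2 difference on that scale was -0.35 with a pooled SD of 0.31. Without aged replicate 1 it was -0.56 and the ages were apart. It was -0.19 without aged replicate 3 and -0.24 without young replicate 2, and in both cases the ages overlapped. With all libraries the ages overlapped on each of these scales, and the sign of the difference depended on the scale. The summed level of 10 plasma cell markers, among them Jchain, Mzb1 and Xbp1, was 845 to 1446 CPM in aged libraries, and in young libraries it was 424, 2112, 589 and 511 CPM. Much of this sum was Jchain, at 477, 771 and 1044 CPM in aged and 179, 1725, 343 and 256 CPM in young libraries. The young library with the most Ighv transcript was thus the one with the most plasma cell marker transcript, and the part of plasma cell content in the summed level was not tested.

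Most of the members were seen in every library. A count was found for 92 of 105 segments in all 7 libraries, 12 had fewer than 10 counts in each, and 85 passed the filter on low counts. The 20 that did not pass held 0.491% to 1.12% of the Ighv counts, with no count above 98. The limit of detection was set at 3 counts, which is 0.00787% to 0.0527% of a library's Ighv counts. From here, a share is a segment's or family's percentage of the Ighv counts of its library, so the Ighv total drops out as a scale. Whether shares still move with the amount or mix of B-lineage RNA was not tested. Shares of segments within a library are compared without a length correction because exon lengths are close, and the leading 5 segments of each age were the same with and without it.

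Within the Ighv transcripts, the Ighv1 family made up more of the aged than of the young libraries. Its 50 segments held 63.1%, 56.4% and 59.9% in aged and 46.3%, 38.3%, 45.3% and 50.7% in young libraries. Every aged value lay above every young value, with means of 59.8% ± 3.38 (SD, n = 3) and 45.1% ± 5.14 (SD, n = 4). Without Ighv1-12, the member whose mean share differed most between ages, the family held 55.3% ± 3.68 against 44.7% ± 5.13, again with no overlap, and the difference was 10.6 in place of 14.7 percentage points. This setting was chosen after seeing the data. In CPM the family overlapped between ages, at 731 to 988 in aged and 230 to 1023 in young libraries.

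The Ighv7 family, whose segment Ighv7-1 encodes the classical antibodies to phosphorylcholine, showed the opposite. Its 3 segments held 1.10%, 1.32% and 1.66% in aged and 7.03%, 10.1%, 6.18% and 5.20% in young libraries, so no aged library reached the lowest young one. Each of the 3 segments had a lower share in every aged than in every young library. Ighv7-3 held 1.16% ± 0.251 against 3.57% ± 1.32, and the rare Ighv7-4, which did not pass the filter, held 0.0442% ± 0.00893 against 0.125% ± 0.0422 (SD, n = 3 and 4). In CPM the family was also lower in every aged library, at 16.6 to 23.1 against 33.7 to 270.3. In 4 other families the aged shares also lay below all young shares, and of these Ighv11 and Ighv12 did so in CPM too, whereas Ighv10 and Ighv14 overlapped in CPM. These were Ighv11 at 0.131% ± 0.118 against 1.74% ± 0.830, Ighv10 at 1.63% ± 0.781 against 4.05% ± 0.616, Ighv12 at 0.0570% ± 0.00959 against 0.281% ± 0.156, and Ighv14 at 1.99% ± 0.540 against 3.03% ± 0.136. The Ighv11 and Ighv12 values come from 1 segment each in practice, Ighv11-2 and Ighv12-3. Both are known from B-1 cells, a self-renewing B cell population whose antibodies often bind phosphatidylcholine. The family shares of the other 9 of 15 families overlapped. Among these, Ighv5 held 9.68% ± 2.09 in aged and 7.14% ± 0.978 in young libraries, and its segments other than the leading Ighv5-4 held 7.12% and 5.53% with no overlap. Without its leading segment Ighv14 overlapped. Shares sum to a whole, so family shares are not independent of each other. No p is given for a family, and an exact two-sided permutation test of 3 against 4 libraries could not go below 0.0571.

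**Figure D1:**
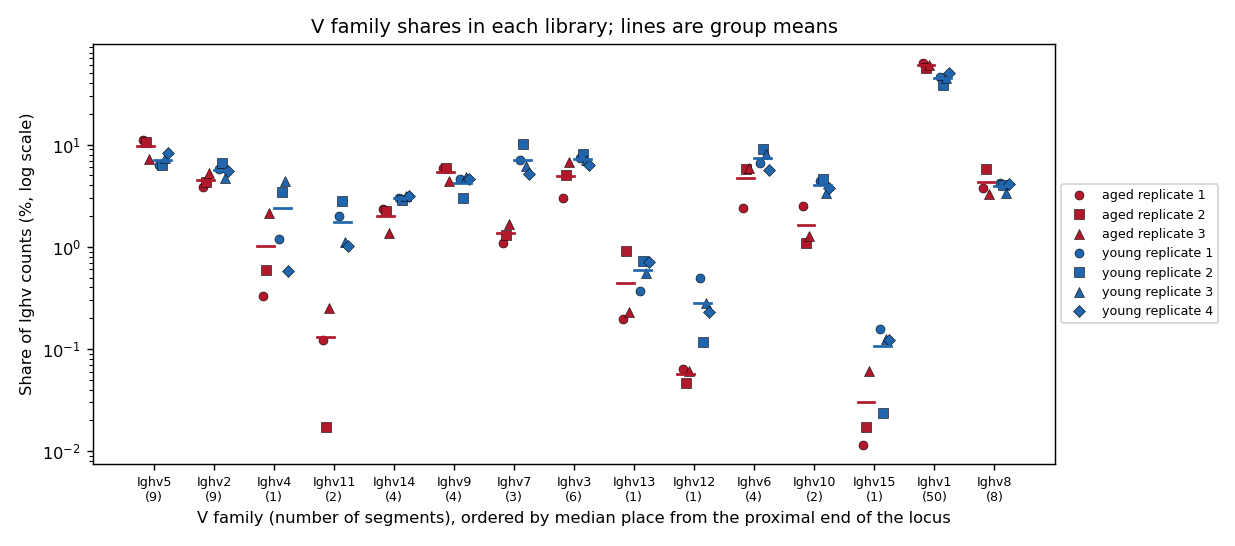
Share of the Ighv counts held by each of the 15 V families (log scale, percent) in 3 aged and 4 young libraries, with points for libraries and lines for group means. The aged points lie above the young points for Ighv1 and below them for Ighv7, Ighv10, Ighv11, Ighv12 and Ighv14.

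In the comparison of all genes (edgeR's quasi-likelihood test, Benjamini-Hochberg adjustment over the 13904 genes tested), 7 of the 85 tested segments were called at an adjusted p under 0.05, or 8.24%. Over all genes tested 16.7% were called, 9.8% higher and 6.94% lower in aged libraries. The difference between these rates was not tested, and it turned without young replicate 2, as given below. The 4 segments that rose were Ighv1-81, Ighv8-8, Ighv1-56 and Ighv1-12, and the 3 that fell were Ighv7-1, Ighv11-2 and Ighv12-3. An unadjusted p under 0.05 by edgeR was found for 15 segments. The share of all genes under that limit is not given for this or the other unadjusted counts, so none of them is read as many or few. The median log2 fold change of the 85 segments was 0.43 against 0.02 over all genes tested, with 55 segments above and 30 below 0. By CPM, 3 tested segments were higher in every aged than in every young library and 3 were lower, which is 3.53% each beside 15.5% and 14.4% of all genes tested.

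Ighv7-1 had the largest fall. Its level was 0.524, 4.63 and 1.97 CPM in aged and 14.8, 129, 31.4 and 11.8 CPM in young libraries, from 6, 46 and 21 counts and from 169, 1843, 397 and 164 counts. The highest aged value was below the lowest young value. The log2 fold change was -4.32 ± 1.07 (SE), with an adjusted p of 0.0289 by edgeR's quasi-likelihood test. As a share of the Ighv counts it was 0.0347%, 0.264% and 0.161% in aged and 2.97%, 4.84%, 4.12% and 1.82% in young libraries. It was the fifth segment by mean share in young libraries, at 3.44% ± 1.33 (SD, n = 4). With young replicate 2 left out, the estimate was -3.04 with an adjusted p of 0.0214. Over the alternatives the adjusted p ran from 1.5e-25 to 0.136, and the call held in 4 of 7 fits that left out 1 library. The low end of this range, and of the ranges of the other called segments below, came from alternatives chosen after seeing the data. The lowest planned value for Ighv7-1 was 4.3e-05 by edgeR, with the Ighv total as library size.

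Ighv11-2 held 0.302 to 3.09 CPM in aged and 6.67 to 74.5 CPM in young libraries. Its counts were 21, 3 and 33 in aged and 115, 1063, 105 and 93 in young libraries, so the value in aged replicate 2 is at the limit of detection. Its share was 0.121%, 0.0172% and 0.253% in aged and 2.02%, 2.79%, 1.09% and 1.03% in young libraries, with no overlap. The log2 fold change was -3.82 ± 1.11 (SE) with an adjusted p of 0.0492 by edgeR, just inside the threshold. The call held in 1 of 7 fits that left out 1 library, namely without young replicate 2, where the log2 fold change was -2.24 and the adjusted p 0.0346. Over the alternatives the adjusted p ran from 1.7e-13 to 0.184, and DESeq2 gave none for it.

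Ighv12-3, at chr12:114366521-114366954, was rare. It took 11, 8 and 8 counts in aged and 28, 45, 27 and 21 counts in young libraries, which is 0.961, 0.806 and 0.749 CPM and 2.45, 3.15, 2.13 and 1.51 CPM. The ages did not overlap by CPM or by share. The log2 fold change was -1.45 ± 0.338 (SE) with an adjusted p of 0.0235 by edgeR, and the call held in 3 of 7 fits that left out 1 library. Over the alternatives the adjusted p ran from 2.1e-05 to 0.273.

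Ighv1-81, a J558 segment at chr12:115920279-115920712, rose in every fit that left out 1 library. Its level was 66.0, 54.6 and 22.0 CPM in aged and 4.98, 17.4, 6.95 and 9.32 CPM in young libraries. Its share was 4.37%, 3.12% and 1.80% in aged and 1.00%, 0.653%, 0.914% and 1.44% in young libraries, so the ages were apart by both measures. The log2 fold change was 2.29 ± 0.467 (SE) with an adjusted p of 0.0142 by edgeR, and it was called in all 7 of those fits. Over the alternatives the adjusted p ran from 8.2e-11 to 0.339, the latter with the Ighv total as library size. Its exon is 92.8% identical to that of its closest relative Ighv1-85, the other tested segment with a higher share in every aged library (0.957% ± 0.208 in aged and 0.532% ± 0.129 in young, SD).

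Ighv8-8, at chr12:115294062-115294504 among Ighv1 segments, held 45.3, 53.7 and 24.8 CPM in aged and 9.44, 23.5, 11.1 and 14.1 CPM in young libraries. The lowest aged value was only just above the highest young value. The log2 fold change was 1.5 ± 0.349 (SE) with an adjusted p of 0.0231 by edgeR, and the call held in 3 of 7 fits that left out 1 library, with a range of 4.3e-06 to 0.397 over the alternatives. By share the ages overlapped, at 2.03% to 3.06% in aged and 0.882% to 2.18% in young libraries.

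Among the called segments, Ighv1-56 and Ighv1-12 varied most between aged libraries. Ighv1-56 took 24, 171 and 15 counts in aged and 8, 7, 4 and 1 counts in young libraries, and its aged replicate 2 alone stood at 17.2 CPM against 2.10 and 1.40 CPM in the other aged libraries. Its log2 fold change was 4.12 ± 0.983 (SE) with an adjusted p of 0.0252 by edgeR, called in 3 of 7 fits that left out 1 library and ranging from 1.9e-13 to 0.112 over the alternatives. Its value fell from 4.12 to 2.15 with aged replicate 2 left out. Ighv1-12 held 158, 45.7 and 5.05 CPM in aged and 1.14, 11.6, 3.79 and 3.30 CPM in young libraries, so aged replicate 3 lay within the young range. Its log2 fold change was 3.79 ± 1.02 (SE) with an adjusted p of 0.0388 by edgeR, called in 2 of 7 fits that left out 1 library and ranging from 6.4e-19 to 0.283 over the alternatives. Its value fell from 3.79 to 2.33 with aged replicate 1 left out. It was the largest segment of aged replicate 1, at 10.4% (1806 counts, 95% Wilson interval 10.001% to 10.913%, counting error only).

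**Figure D2:**
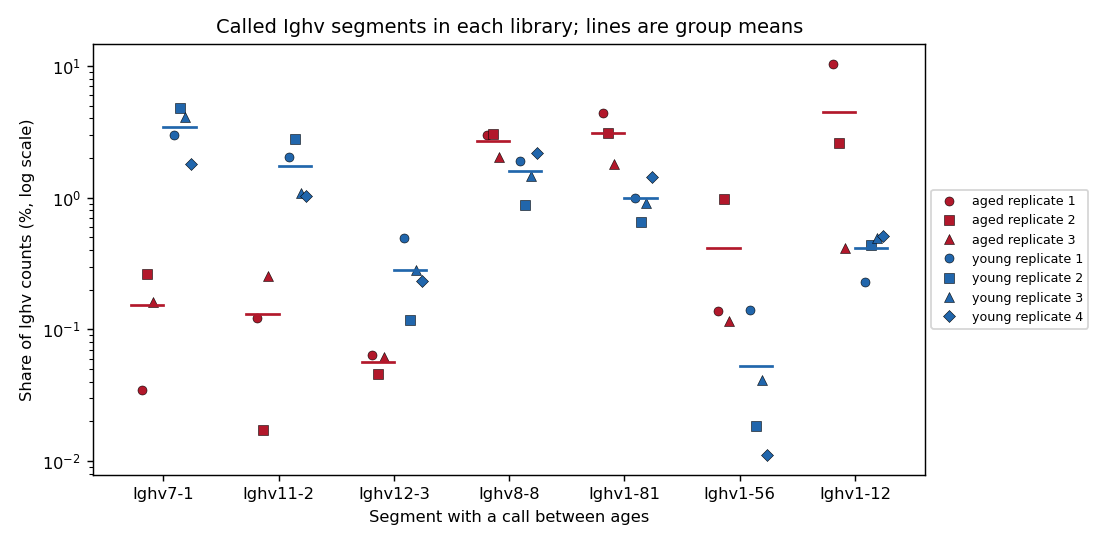
Share of the Ighv counts (log scale, percent) of the 7 segments called between ages, with 1 point per library and lines for group means. The ages are apart for Ighv7-1, Ighv11-2, Ighv12-3 and Ighv1-81, and the aged points of Ighv1-56 and Ighv1-12 are spread widely.

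The same test was run with the Ighv total as the size of each library, so that the fit was on the share of each segment. It called 3 segments higher (Ighv1-12, Ighv1-56 and Ighv3-5) and 3 lower (Ighv7-1, Ighv11-2 and Ighv1-36). The Ighv3-5 call rested on aged replicate 3, at 3.63%, since its shares of 0.00579% and 0.0747% in the other aged libraries lay below the lowest young share of 0.0885%. On the library scale its log2 fold change turned from 2.64 to -1.83 without aged replicate 3. On that scale 0.885% of all genes tested were called, 0.316% higher and 0.568% lower, and the median log2 fold change over all genes was -0.92. The adjusted p by edgeR was 4.3e-05 for Ighv7-1, 0.00153 for Ighv11-2 and 0.00078 for Ighv1-12, whereas for Ighv1-36 it was 0.0394. By share alone, 2 tested segments were higher in every aged library and 13 (15.3%) were lower. Counted per Ighv count, 1.59% of all genes tested were higher without overlap and 1.9% were lower. Other genes are here divided by the Ighv total, which was 13041 to 17395 in aged and 5691 to 38116 in young libraries. That spread enters the values of other genes, so neither these rates nor the 0.885% called are a like base for the segments. The 13 lower segments came from 9 families. They were Ighv7-1, Ighv7-3, Ighv3-4, Ighv3-6, Ighv6-3, Ighv10-1, Ighv10-3, Ighv11-2, Ighv12-3, Ighv14-2, Ighv8-5, Ighv1-4 and Ighv1-36.

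Young replicate 2 bears on how many segments were called. Without it, 24 of 84 tested segments were higher in aged libraries and 3 were lower by edgeR, beside 9.11% and 5.4% of all genes tested. All 7 segments named above were again called without it, with adjusted p values from 0.00644 (Ighv1-81) to 0.0476 (Ighv1-56). With the Ighv total as library size and young replicate 2 left out, 12 segments were higher and 20 lower, but on that scale 1.84% and 79.6% of all genes tested were called, with a median log2 fold change of -1.23. With the summed counts of the 9 B cell markers as library size, 31 segments were higher and 7 lower, beside 12.5% and 0.863% of all genes tested. The last 2 alternatives were chosen after seeing the data.

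Of the leading 5 segments by mean share, Ighv1-26 was the one shared by both ages. It led by mean share in both, with 7.12%, 6.28% and 8.72% in aged and 5.46%, 5.27%, 9.19% and 5.67% in young libraries, and the ages overlapped. The leading 5 in aged libraries were Ighv1-26, Ighv1-18, Ighv9-3, Ighv1-12 and Ighv1-53. In young libraries they were Ighv1-26, Ighv3-6, Ighv6-3, Ighv7-3 and Ighv7-1. Ighv3-6, the largest segment of young replicates 1 and 2, held 5.58% ± 0.764 in young and 2.82% ± 1.06 in aged libraries (SD, n = 4 and 3) with no overlap. Ighv6-3 held 4.76% ± 0.891 in young and 2.26% ± 1.03 in aged libraries, also with no overlap. Neither was called by edgeR on the library scale, where the adjusted p was 0.555 for Ighv3-6 and 0.428 for Ighv6-3. Ighv9-3 held 4.51% ± 0.842 in aged and 2.90% ± 0.785 in young libraries, which overlapped, and its adjusted p by edgeR was 0.0554.

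The other segments named for a well-known antigen or position were not called. Ighv1-72, the segment of the C57BL/6 antibody response to the hapten NP, held 1.77% ± 0.813 in aged and 1.13% ± 0.227 in young libraries, and its adjusted p by edgeR was 0.25. Ighv1-53, which is also used in that response, held 4.34% ± 2.17 and 3.07% ± 0.510, with an adjusted p of 0.462. Ighv5-2, the segment nearest to the D segments, was rare, at 0.0679% ± 0.0140 and 0.194% ± 0.108, with an adjusted p of 0.219. The ages overlapped for all 3.

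Segment diversity was lower in the aged libraries. The effective number of segments, the exponential of the Shannon entropy of the shares, is the number of equally common segments that would be as diverse. It was 44.1, 50.7 and 46.6 in aged and 57.9, 52.4, 52.0 and 60.4 in young libraries. The ages did not overlap, although aged replicate 2 was close to the lowest young library. The means were 47.1 ± 3.31 (SD, n = 3) and 55.7 ± 4.14 (SD, n = 4). Young replicate 1 had the fewest Ighv counts, and rarefied to its 5691 counts the means were 46.9 and 55.5, again with no overlap. With the largest segment of each library left out they were 49.1 and 57.2 with no overlap. The inverse Simpson index, which weights common segments more, was 27.5 to 37.9 in aged and 34.4 to 46.0 in young libraries and overlapped.

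The number of segments seen overlapped between ages. Between 98 and 101 segments had a count in aged and between 98 and 102 in young libraries. Rarefied to 5691 counts, 90.8 to 97.3 segments were expected in aged and 95.6 to 100.4 in young libraries, which overlapped. The largest segment held 10.4% (Ighv1-12), 6.28% (Ighv1-26) and 8.90% (Ighv1-18) in aged libraries. In young libraries it held 5.87% (Ighv3-6), 6.37% (Ighv3-6), 9.19% (Ighv1-26) and 5.67% (Ighv1-26), so the largest shares overlapped. The 10 largest segments held 45.5% ± 4.69 in aged and 40.5% ± 3.94 in young libraries (SD, n = 3 and 4), also with overlap.

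**Figure D3:**
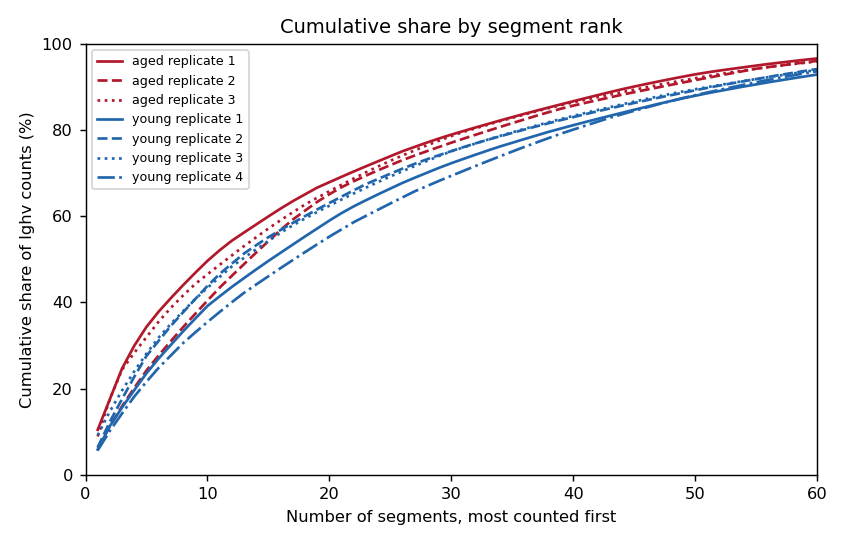
Cumulative share of the Ighv counts (percent) against segment rank from the largest down, with 1 line per library. Aged replicates 1 and 3 run above the young lines beyond the first segments, aged replicate 2 starts among the young lines and joins the other aged lines at later ranks, and the first points range from 5.67% to 10.4%.

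The aged libraries also differed more from each other than the young ones. The Bray-Curtis distance between the segment shares of a pair of libraries, which is 0 for the same mix, was 16.3% to 22.6% over the 6 young pairs (median 16.7%). Over the 3 aged pairs it was 32.0% to 37.5% (median 33.6%), above every young pair. Over the 12 pairs of an aged with a young library it was 28.3% to 42.0% (median 34.1%), so at the segment level aged libraries were about as far from each other as from young ones. At the family level the order was different. The distance was 8.85% to 11.3% for aged pairs (median 9.04%) and 6.33% to 16.7% for young pairs (median 9.48%). For pairs of different age it was 11.2% to 32.6% (median 17.9%), which overlapped with both. Pairs share libraries, so these distances are a description with no test. The pairs of young replicate 2, which held the most Ighv transcript, with the other young libraries gave 16.3% to 22.6% by segment. By family they gave 10.6% to 16.7%, and the pairs of young replicate 2 with the aged libraries gave 24.1% to 32.6%.

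**Figure D4:**
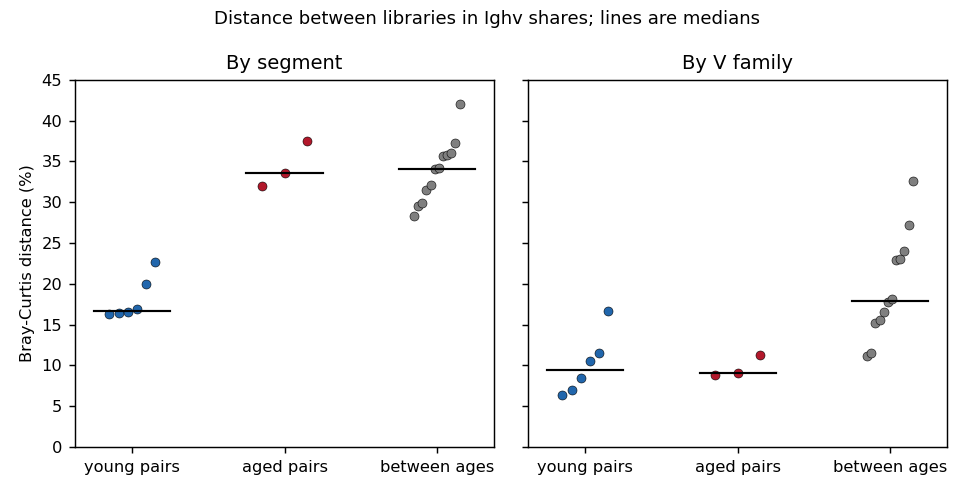
Bray-Curtis distance (percent) of Ighv segment shares for each pair of the 7 libraries, in young pairs, aged pairs and pairs of different age, by segment and by family. By segment the 3 aged pairs (32.0% to 37.5%) lie above the 6 young pairs (16.3% to 22.6%), and by family aged and young pairs lie together.

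Some segments were high in 1 library. A segment was looked for whose share was at least 5 times that of any other library, with at least 100 counts. There were 3, all in aged libraries. The minimum of 100 counts is 0.575% to 0.767% of the Ighv counts of an aged library but 1.76%, 1.04% and 1.11% in young replicates 1, 3 and 4, so it was harder to meet there. With a share of at least 0.5% in its place, chosen after seeing the data, 4 segments were found in aged and 0 in young libraries, the fourth being Ighv1-49 with 98 counts in aged replicate 2. Ighv3-5 held 3.63% of aged replicate 3 (473 counts, 95% Wilson interval 3.32% to 3.96%), 13.97 times the next library, and 1 count in aged replicate 1. Ighv1-47 held 3.14% of aged replicate 1 (542 counts, interval 2.89% to 3.41%), 8.88 times the next library. Ighv1-56 held 0.983% of aged replicate 2 (171 counts, interval 0.847% to 1.14%), 6.99 times the next library. Ighv1-18 did not meet this rule but also varied between aged libraries, with 0.694%, 4.996% and 8.895% in the aged libraries against 1.63% to 1.94% in the young.

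A second description, chosen after seeing the data, set each library against the median share of the young libraries, leaving out the library itself when it was young. Segments at least 3 times that median and at least 0.5% of the library numbered 5, 9 and 4 in the aged and 0, 1, 1 and 1 in the young libraries. An aged library was thus set against the other age and a young library against its own, so the numbers of the ages are not a like comparison. In the aged libraries these segments held 19.7%, 19.9% and 15.6% of the Ighv counts. Of the 15 segments found in any aged library, 12 were found in 1 library, 3 in 2 libraries (Ighv1-12, Ighv1-5 and Ighv1-81) and 0 in all 3. In the other direction, among segments with a young median of at least 0.5%, Ighv7-1, Ighv11-2 and Ighv8-5 were at least 3 times below it in all 3 aged libraries. Ighv8-5 held 0.063% to 0.174% in aged and 0.228% to 1.498% in young libraries. Over the 57 segments with a mean share of at least 0.5%, the coefficient of variation of the share had a median of 45.5% among aged and 27.8% among young libraries and was larger in aged for 41.

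By place in the locus, the segments near D and J held a lower share in aged libraries. The 105 segments were split into 3 groups of 35 by position. The proximal group held 25.4%, 25.2% and 26.3% in aged and 30.3%, 35.5%, 32.6% and 28.7% in young libraries, with no overlap. The distal group held 33.9% to 39.4% in aged and 25.7% to 31.6% in young libraries, with no overlap. The middle group overlapped. When the 7 called segments were left out, the proximal group held 24.9% to 25.9% in aged and 25.3% to 27.9% in young libraries. The distal group held 27.6% to 32.2% in aged and 23.3% to 28.0% in young libraries, and all 3 groups overlapped. The 7 were picked for their difference between ages in these data, so a smaller gap was built into this step and no conclusion is drawn.

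**Figure D5:**
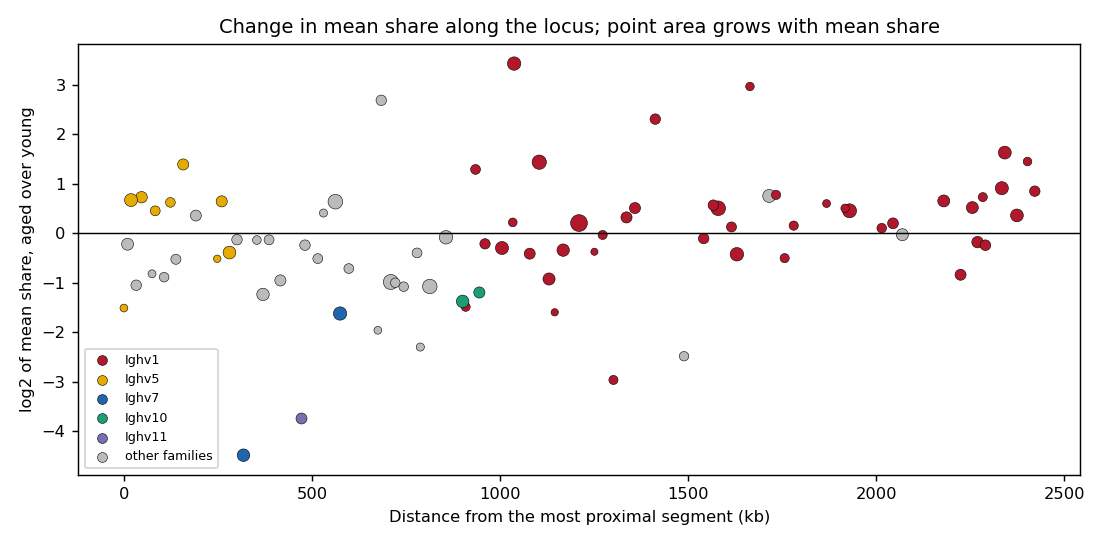
Log2 ratio of the mean share, aged over young, of the 85 tested segments against distance (kb) from the most proximal segment, coloured by family, with point area growing with mean share. Ighv7-1 and Ighv11-2 are the lowest points and lie in the proximal group, Ighv1-12 is the highest, and the Ighv1 segments fill the part farther from D and J.

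Other genes of antibody production and rearrangement were read from the same fit. Of a list of 33, 30 were tested, 4 rose and 3 fell by edgeR's quasi-likelihood test, beside the 9.8% and 6.94% of all genes given above. Of the heavy chain constant genes that encode switched isotypes, Ighg2b, Ighg2c and Igha rose, Ighg1 and Ighg3 were not called, with adjusted p of 0.0672 and 0.276 by edgeR, and Ighe did not pass the filter. Ighg2c was at 1787, 1886 and 710 CPM in aged and 9.44, 24.0, 6.40 and 12.5 CPM in young libraries, with a log2 fold change of 6.80 ± 0.559 (SE). Ighg2b had a log2 fold change of 5.05 ± 0.671 (SE) and Igha of 2.18 ± 0.620 (SE). Igha overlapped between ages, at 437 to 1780 CPM in aged and 95.2 to 502 CPM in young libraries, with an adjusted p of 0.0455 by edgeR. Ighm, which encodes the IgM chain and took the most counts of these genes, was at 6786 to 11100 CPM in aged and 3444 to 13531 CPM in young libraries and had an adjusted p of 0.542. Prdm1, a regulator of plasma cells that is also made by Tregs, rose by a log2 of 1.196 ± 0.307 (SE). The 3 that fell were Rag1, Dntt and Vpreb3. Rag1 is part of the recombinase that joins the segments, and Dntt adds bases at the joins. Vpreb3 is a partner of the heavy chain in immature B cells. Rag2 was not called, with an adjusted p of 0.0739 by edgeR, and Vpreb1 and Igll1 did not pass the filter. Rag1 was at 0.0873, 7.35 and 0.749 CPM in aged and 22.7, 15.4, 77.0 and 30.8 CPM in young libraries, with a log2 fold change of -3.775 ± 1.011 (SE).

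Markers of other cell types were read beside the segments, and their calls stand beside the 9.8% of all genes tested called higher and the 6.94% called lower. Of 10 plasma cell markers, Prdm1 and Slpi were called higher by edgeR, and 6 of the 10 were called higher with young replicate 2 left out (Prdm1, Slpi, Jchain, Mzb1, Xbp1 and Derl3). Of 8 B-1 or marginal zone markers, Cd1d1 was called higher and Cd5 and Dtx1 lower, with a summed level of 937 to 1060 CPM in aged and 1180 to 1335 CPM in young libraries. Much of this sum was Cd5, at 291 to 347 CPM in aged and 396 to 479 CPM in young libraries, and Spn, at 260 to 357 CPM and 385 to 414 CPM. Of 5 markers of age-associated B cells, Tbx21 and Cxcr3 were called higher, with a summed level of 170 to 172 CPM against 76.9 to 97.4 CPM. Cxcr3 alone made up 103 to 114 CPM of the aged sum. Itgax lay the other way, at 15.3 ± 4.89 CPM in aged and 25.2 ± 3.76 CPM in young libraries (SD, n = 3 and 4), with a log2 fold change of -0.72 and an adjusted p of 0.0592 by edgeR. DESeq2 called it lower, as did edgeR with no filter, without aged replicate 3 or without young replicate 2. Of 10 Treg markers, Cd3e was called higher and Lrrc32 lower, with a summed level of 3555 to 4055 CPM against 2941 to 4387 CPM. Each list was detected in every library. Cd5, Spn, Dtx1, Tbx21, Cxcr3 and Prdm1 are also made by T cells, so these sums do not measure B cells alone. Their part in the segment shares was not tested.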

How the data were processed

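RNA-sequencing libraries of CD4+CD25+ splenocytes (SMART-Seq v4 cDNA) from 3 aged and 4 young mice were analysed. The authors deposited raw gene counts for each library, in the layout of HTSeq-count tables. Their naming points to union mode without strand. The build is mm10 per the submitters' processing notes, and the aligner and annotation are not given in the sources used here. The authors also deposited one table of signal values, the counts divided by 1 size factor per library, which was checked against the counts. It supplied symbols and gene types, and its columns of the authors' own comparison (fold changes and p-values) were not used. Reads that no single gene received, 13.1% to 20.9%, were left out. Reads on more than 1 gene (4.79% to 9.55%) can include joins of a V segment with a J or constant gene, which would lower Ighv counts. The tables list 0 reads as aligned to several places, and how such reads were handled is not known, so counts of near-identical segments are uncertain. Mutated antibody reads may also align less well, which was not tested. The cDNA carries no molecular identifiers, so intervals and floors cover counting error only.

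Counts were tested with the quasi-likelihood test of edgeR 4.0.16 under R 4.3.3 (filterByExpr by group, TMM factors, no covariate, Benjamini-Hochberg over 13904 genes, call at an adjusted p under 0.05), although the paper names limma. Standard errors were obtained from the log2 fold change divided by the square root of F. Shares, Wilson intervals, diversity, exact rarefaction and Bray-Curtis distances were computed in Python 3.11.15 with SciPy 1.17.1. Alternatives were DESeq2 1.42.0, limma 3.58.1 (voom), other scalings and filters, a log2 fold change of at least 1, the replicate number as a block, and each library left out. On simulated counts for this comparison (13704 genes), 77 of 96 genes changed by a log2 of 2 and 48 of 98 changed by 1 were called, with 11 false calls.

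The members and lists were chosen with earlier results of these data known. One gene of the lists is not reported here and was left out of them. Segments named are those called, the 5 largest by mean share of each age, the largest of each library, segments with a known antibody (Ighv11-2, Ighv12-3, Ighv7-1, Ighv1-72, Ighv1-53) or D-proximal place (Ighv5-2), and those dominant in 1 library. Others (Ighv1-85, Ighv7-4, Ighv8-5, Ighv5-4, Ighv1-36, Ighv1-5 and the list of lower shares) were named after their values were seen. V exons and coordinates are from GENCODE M21 (GRCm38), whose build is the one named by the submitters. The labels give 8 weeks for the young mice, which is used here, whereas the paper's methods state a somewhat older age for them.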

Additional observations from a re-analysis of the deposited data

Results flagged for a closer look

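Each value below belongs to young replicate 2 and stood apart from the other 3 young libraries by Dixon's test for a single distant value in a group of 4, at the 95% level. The summed Ighv level was 2671 CPM, where the next young library had 760 CPM. The Ighv9 family held 2.98% of its Ighv counts, the lowest young share. For 8 named segments the level in this library was the highest of the young group, at 43.6 CPM for Ighv1-18, 93.8 CPM for Ighv1-53, 29.7 CPM for Ighv1-72, 74.5 CPM for Ighv11-2, 170.1 CPM for Ighv3-6, 159.3 CPM for Ighv6-3, 129.1 CPM for Ighv7-1 and 137.4 CPM for Ighv7-3. In all, 37 values were screened, 10 stood apart, and chance gives about 1 in 20. The 10 are not independent, since 9 are levels in CPM that move with the summed Ighv level of this library.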

How the results depend on the processing

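The 7 segments called by edgeR kept their direction in every alternative that tested them. The change of direction of Ighv3-5, which was called with the Ighv total as library size, is given in the report. Among counts of called segments, the number higher in aged libraries (4 as reported) was 7 with no filter and 0 with the replicate block. It was 12 with the Ighv total as library size without young replicate 2, and 31 with summed B cell marker counts as library size. The number lower (3 as reported) was 1 with limma voom, 0 with at least 10 counts in every library, 1 with the replicate block, 20 with the Ighv total without young replicate 2, and 7 with B cell marker counts. At least 10 counts in every library removes Ighv7-1, Ighv11-2 and Ighv12-3, each under 10 in an aged library, and 0 segments were then lower at an unadjusted p under 0.05 by edgeR. Leaving out 1 library gave 1 to 24 higher and 0 to 3 lower. The 24 came without young replicate 2, and the 1 without young replicate 1, 3 or 4, where the calls over all genes were 1988 and 1315, 1270 and 1237 (2327 as reported). The 0 came without aged replicate 3 or young replicate 3, where 4 and 6 segments were lower at an unadjusted p under 0.05 by edgeR. DESeq2 called 5 of 87 tested segments higher and 2 lower, beside 2910 of 16543 genes in either direction. Over all genes, 2221 of 25469 were called with no filter and 2283 of 13904 with limma voom. With at least 10 counts in every library, 1966 of 12221 were called. Of the rearrangement and immunoglobulin genes (4 higher and 3 lower as reported), 8 were lower with DESeq2, 6 with no filter, 0 with the replicate block (8 at an unadjusted p under 0.05 by edgeR) and 17 with the Ighv total without young replicate 2, and 8 were higher with B cell marker counts. Leaving out 1 library gave 2 to 11 higher, the 11 without young replicate 2, and 1 to 4 lower. Samples with the same replicate number did not deviate together (correlations of -0.09, -0.29 and -0.14), so the number was not taken as a pairing, and the block reduced the calls over all genes from 2327 to 292. With the block, 11 segments were higher at an unadjusted p under 0.05 by edgeR. The summed Ighv level per heavy chain constant count gave a log2 difference of -0.35 (pooled SD 0.31) in place of 0.72 (pooled SD 0.85), so the sign changed, and per B cell marker count it was 1.12 (pooled SD 1.08). The difference in segments with a count was -0.33 not rarefied. The effective number (difference -8.54) stayed between -10.3 and -6.96 and the Ighv1 family share (difference 14.7) between 12.4 and 16.5 over the libraries left out. Over the 7 called segments and the planned refits, the call was kept 68 times and lost 39 times. The cause of these shifts was not tested. Depth limits segments under 10 counts, and 3 aged and 4 young libraries limit every comparison of shares.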
